A study of Mus musculus with 9 samples.

Results

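The mitochondrial ribosome of the mouse is built from nuclear-encoded proteins, and the genes described here are those protein-coding genes whose symbols begin with Mrpl or Mrps followed by a digit. Of 54532 genes in the deposited liver table, 78 met this rule, 49 of the large subunit (Mrpl) and 29 of the small subunit (Mrps). Another 5 pseudogenes with such symbols were left out. The members lie on 17 chromosomes, and 77 of them passed the filter on low values (a mean of at least 0.5 FPKM, fragments per kilobase of exon scaled to library size, over the 9 libraries). The member that did not pass, Mrpl53, was listed at 0 in all 9 libraries. Its exons overlap 2 other annotated genes.

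The samples were of whole liver tissue in 3 groups of 3 libraries. The groups were Cth knockout mice given 1% betaine in the drinking water, Cth knockout mice on drinking water, and wild-type (WT) mice on drinking water. Cth encodes cystathionine gamma-lyase, the enzyme that releases cysteine from cystathionine, and the study was set up to examine its role in chronic liver disease. Betaine is a methyl donor that the liver uses to turn homocysteine back into methionine. The knockout allele, strain, age and sex were not given in the sources used here, nor whether replicates were separate animals, so p-values measure only the spread between these samples.

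Mitochondrial ribosomes translate the few messages that the mitochondrial genome still encodes, all of which are for subunits of the respiratory chain and of ATP synthase. Their 2 subunits pair mitochondrially encoded ribosomal RNAs with proteins made in the cytosol and imported. Some of these proteins have bacterial counterparts and others are found only in mitochondria. Hepatocytes are rich in mitochondria, and defects of these proteins in humans cause combined respiratory chain deficiencies.

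For some members the symbol does not match the place of the protein. Mrps30 and Mrps18a are named as small subunit proteins and sit in the large subunit, and Mrps36 is a component of the 2-oxoglutarate dehydrogenase complex. Counts below follow the symbols unless stated.

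Promoter windows of 250 bases before to 50 bases after the start site were found in RefSeq (GRCm38.p6, the same assembly as the mm10 build of the deposited table) for 69 of the 78 members. Windows of 6 members are printed because they include genes that passed and genes that did not pass the test in the knockout comparison and because, except for Mrpl44, each holds at least 1 of the motifs searched. None of the 6 holds the E-box. Mrpl27 had the smallest p of all members and Mrps33 and Mrpl42 also rose. Mrps11 rose while Mrpl46, its head-to-head neighbour, did not pass the test. Mrpl32 and Mrpl44 did not pass the test either. Capitals mark exact matches, on either strand, to CCGGAAG (bound by ETS factors such as GABPA), GCGCATGCG (NRF1), AAGATGGC (YY1), GGGCGG (SP1) or CACGTG (E-box). The windows lie at chr11:94653541-94653840 on the plus strand (Mrpl27, 1 ETS match), chr6:39810887-39811186 on the minus strand (Mrps33, 3 SP1 matches and 1 ETS match) and chr10:95501900-95502199 on the minus strand (Mrpl42, 1 SP1 and 1 YY1 match). The others lie at chr7:78782881-78783180 on the plus strand (Mrps11, 1 YY1 and 1 SP1 match), chr13:14612988-14613287 on the minus strand (Mrpl32, 3 NRF1 matches, of which 2 overlap, with 1 YY1 and 1 SP1 match) and chr1:79775768-79776067 on the plus strand (Mrpl44, no match).
Mrpl27: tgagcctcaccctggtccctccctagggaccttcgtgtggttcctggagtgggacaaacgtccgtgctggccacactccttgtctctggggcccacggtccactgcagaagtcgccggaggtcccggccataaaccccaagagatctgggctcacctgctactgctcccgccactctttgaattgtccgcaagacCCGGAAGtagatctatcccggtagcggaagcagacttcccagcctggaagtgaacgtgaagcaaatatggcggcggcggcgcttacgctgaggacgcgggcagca
Mrps33: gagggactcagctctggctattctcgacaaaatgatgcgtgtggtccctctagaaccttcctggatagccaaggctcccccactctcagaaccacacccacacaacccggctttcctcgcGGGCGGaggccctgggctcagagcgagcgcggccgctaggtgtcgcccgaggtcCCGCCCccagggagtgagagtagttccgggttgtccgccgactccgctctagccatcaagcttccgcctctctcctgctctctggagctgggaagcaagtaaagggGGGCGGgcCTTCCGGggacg
Mrpl42: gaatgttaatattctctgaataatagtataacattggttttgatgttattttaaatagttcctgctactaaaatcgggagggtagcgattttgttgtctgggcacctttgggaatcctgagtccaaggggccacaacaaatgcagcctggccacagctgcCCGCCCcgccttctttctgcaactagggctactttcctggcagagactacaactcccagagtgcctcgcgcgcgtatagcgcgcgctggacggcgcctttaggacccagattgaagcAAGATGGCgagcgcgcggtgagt
Mrps11: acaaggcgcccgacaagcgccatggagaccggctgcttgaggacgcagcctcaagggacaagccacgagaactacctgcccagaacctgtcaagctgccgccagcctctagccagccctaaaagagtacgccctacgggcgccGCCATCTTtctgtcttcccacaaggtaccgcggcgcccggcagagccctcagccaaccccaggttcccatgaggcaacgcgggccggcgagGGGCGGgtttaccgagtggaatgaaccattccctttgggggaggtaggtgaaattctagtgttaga
Mrpl32: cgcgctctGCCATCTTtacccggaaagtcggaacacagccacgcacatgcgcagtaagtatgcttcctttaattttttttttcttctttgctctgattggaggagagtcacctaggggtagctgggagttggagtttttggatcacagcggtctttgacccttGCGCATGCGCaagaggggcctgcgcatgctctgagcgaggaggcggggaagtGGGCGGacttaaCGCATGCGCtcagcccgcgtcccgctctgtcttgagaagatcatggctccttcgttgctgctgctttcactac
Mrpl44: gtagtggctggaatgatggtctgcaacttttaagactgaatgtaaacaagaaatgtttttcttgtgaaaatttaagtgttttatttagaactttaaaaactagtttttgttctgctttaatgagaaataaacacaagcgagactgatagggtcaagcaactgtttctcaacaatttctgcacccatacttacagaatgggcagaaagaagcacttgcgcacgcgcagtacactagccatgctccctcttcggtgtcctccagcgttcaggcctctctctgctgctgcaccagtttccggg

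The ETS letters stood in 36.2% of the 69 member windows and in 19.1% of the 8562 windows of genes tested. The YY1 letters stood in 17.4% of member windows and in 5.02% of windows of genes tested, and the NRF1 letters in 10.1% and 3.90%. The SP1 letters were in 49.3% of member windows and 63.9% of windows of genes tested, and the E-box in 7.25% and 10.6%. Member windows of the 36 genes that rose in knockout livers and of the 33 that did not pass held the ETS letters in 38.9% and 33.3%, the YY1 letters in 13.9% and 21.2%, and the NRF1 letters in 5.56% and 15.2%. These shares describe letters in a window and carry no test.

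Cth itself had 0.319, 0.309 and 0.781 FPKM in the betaine-supplemented knockout libraries, 0.583, 0.278 and 0.770 in the knockout libraries and 285, 257 and 219 in the WT libraries. The genotype labels therefore match the targeted gene. Reads recovered from FPKM and exon length came to 15184973 to 17473958 per library, of which 30499 to 48551 fell on the members. The 6 hepatocyte markers summed to 30378 to 42363 FPKM in betaine-supplemented knockout livers, 37929 to 49295 in knockout livers and 44492 to 63980 in WT livers. Markers of sinusoidal endothelium summed to 19.7 to 31.2, 23.5 to 31.1 and 31.5 to 57.0 FPKM in the same order, and those of Kupffer cells to 45.2 to 104, 60.2 to 72.0 and 85.3 to 114, with none of the 6 markers of each list at 0 throughout. For knockout over WT 2 hepatocyte markers were called higher and 1 lower, 1 endothelial marker was called lower, and 0 Kupffer cell markers were called. For betaine over WT 1 endothelial marker was called lower. Their part in the results below was not tested, and in whole liver fewer cells of a type cannot be told apart from less RNA per cell. WT replicate 3 stood apart from the other 8 libraries. It had 0 reads on 4 Y-linked genes, against 1512 to 2393 elsewhere, and 26.6 FPKM of Xist, against at most 0.0124. By these transcripts that library reads as female and the other 8 as male, although the labels give no sex. Only the WT group thus held both patterns. Counts against WT of the members and of the lists of ribosome factors are therefore also given without WT replicate 3.

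Mitochondrial ribosomal protein transcripts were higher in Cth knockout livers than in WT livers in both subunits. In the comparison of knockout with WT livers 26 of 48 large subunit genes and 15 of 29 small subunit genes rose at an adjusted p under 0.05, and none fell. Over all 11852 genes tested, 12.8% were called higher and 12.7% lower, so the members' 53.2% stands well above the background. The median log2 fold change was 0.62 in the large and 0.59 in the small subunit, against 0.02 over all genes, and 71 of the 77 members had a positive value. The values ran from -0.17 to 1.47. With Mrps30 and Mrps18a counted in the large subunit and Mrps36 left out, 27 of 50 large and 13 of 26 small subunit genes rose.

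The lift was also visible library by library. Summed over the 49 large subunit genes, FPKM were 1055, 781 and 983 in betaine-supplemented knockout livers, 1114, 1204 and 1071 in knockout livers and 764, 796 and 565 in WT livers. The small subunit summed to 425, 329 and 419 FPKM in betaine-supplemented knockout livers, 451, 465 and 421 in knockout livers and 314, 309 and 248.6 in WT livers. Every knockout library lay above every WT library in both sums, and betaine replicate 2 lay within the WT range for the large subunit and just above it for the small subunit. The place of betaine replicate 2 depended on the scaling. With reads on the members taken as a share of each library's own recovered reads, it lay above every WT library for both subunits. On the deposited FPKM no WT library held the highest value of the 9 for any of the 77 members, whereas knockout replicate 2 held it for 23 large and 9 small subunit genes. With the trend on principal transcript length removed, knockout replicate 2 held it for 17 large and 9 small subunit genes. WT replicate 2 then held it for 4 large subunit genes, and WT replicates 1 and 3 for 2 and 1 small subunit genes. The same shares over all genes are not given here. The knockout FPKM did not overlap the WT FPKM and lay above them for 37 of 48 large and 20 of 29 small subunit genes, 57 of 77 in all, where 23.6% of all genes tested did so. Within groups, the median SD of the members on the log2 scale was 0.23 in betaine-supplemented knockout livers, 0.11 in knockout livers and 0.20 in WT livers. Without WT replicate 3 the WT value was 0.09.

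**Figure D1:**
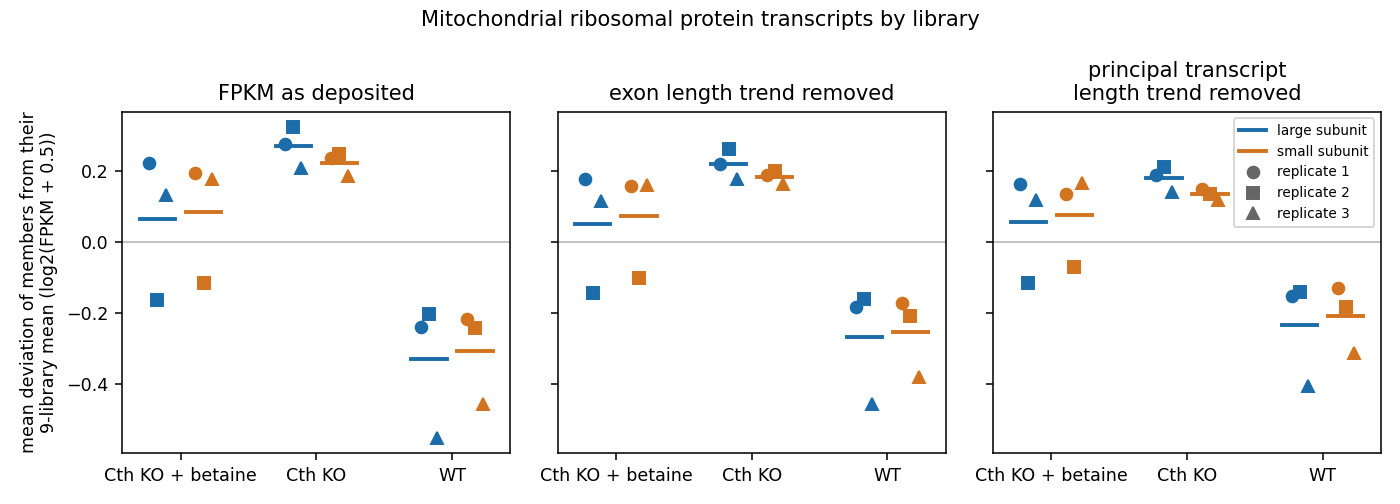
Mean deviation of the 48 large (blue) and 29 small (orange) subunit genes from their 9-library mean, in log2(FPKM + 0.5) units, for each library of the 3 groups. The panels show FPKM as deposited and FPKM with the trend on exon length or on principal transcript length removed; horizontal bars are group means. Knockout libraries lie above all WT libraries in each panel, betaine replicate 2 lies well below the other betaine libraries, and WT replicate 3 is the lowest.

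Without WT replicate 3 the count was 21 large and 13 small subunit genes, with medians of 0.49 and 0.48, where 9.99% of all genes were called higher. All of these 34 genes were among the 41. Over the 9 fits that each left out 1 library, 17 of the 41 stayed called in every one. The fit without knockout replicate 2 called the fewest, 10 large and 7 small subunit genes. Of these 9 fits, the share of all genes called is given here only for that without WT replicate 3. In the others a change in the members' counts cannot be told apart from a change over all genes.

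The large subunit genes with the smallest p in this comparison are given first. Mrpl27, whose bacterial counterpart reaches into the peptidyl transferase centre, had 51.8, 36.9 and 45.9 FPKM in betaine-supplemented knockout livers, 48.5, 63.8 and 56.2 FPKM in knockout livers and 22.8, 28.7 and 22.8 FPKM in WT livers. Every knockout library with or without betaine lay above the WT libraries. The log2 fold change of knockout over WT was 1.17 ± 0.17 (SE, adjusted p = 0.00567). Exons of Mrpl27 overlap those of Eme1 on the opposite strand, and Eme1 reached at most 0.0676 FPKM. Mrpl4, which in bacteria lines the tunnel through which the new peptide leaves, had 17.4, 15.3 and 18.1 FPKM in betaine-supplemented knockout livers, 18.4, 19.5 and 19.6 FPKM in knockout livers and 12.03, 11.05 and 9.57 FPKM in WT livers. The knockout libraries differed little among themselves, and the log2 fold change over WT was 0.80 ± 0.12 (SE, adjusted p = 0.00612). Mrpl33, a small protein with a bacterial counterpart, had 2.28, 1.66 and 1.34 FPKM in betaine-supplemented knockout livers, 2.81, 3.78 and 2.96 FPKM in knockout livers and 1.20, 1.21 and 1.162 FPKM in WT livers. Its 3 groups did not overlap, and the log2 fold change of knockout over WT was 1.11 ± 0.17 (SE, adjusted p = 0.00612).

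Mrpl54, Mrpl51, Mrpl42 and Mrpl55 encode proteins that have no bacterial counterpart. Mrpl54 had the largest value of all members. It had 42.7, 27.02 and 34.9 FPKM in betaine-supplemented knockout livers, 44.8, 54.8 and 42.3 FPKM in knockout livers and 20.1, 22.6 and 10.1 FPKM in WT livers. WT replicate 3 was the lowest library. The log2 fold change of knockout over WT was 1.47 ± 0.29 (SE, adjusted p = 0.00991) and 1.12 without that library. Mrpl51 had 13.02, 8.76 and 12.5 FPKM in betaine-supplemented knockout livers, 17.3, 19.0 and 16.4 FPKM in knockout livers and 9.26, 9.17 and 7.64 FPKM in WT livers. Knockout lay above both other groups, with a log2 fold change over WT of 0.98 ± 0.16 (SE, adjusted p = 0.00669). Mrpl42 had 15.7, 9.82 and 14.7 FPKM in betaine-supplemented knockout livers, 14.7, 14.7 and 13.4 FPKM in knockout livers and 6.57, 6.87 and 7.36 FPKM in WT livers. Here both knockout groups lay above WT in every library (log2 fold change of knockout over WT 0.99 ± 0.17 SE, adjusted p = 0.00678). Mrpl55 rose by 0.86 ± 0.16 (SE, adjusted p = 0.00891).

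**Figure D2:**
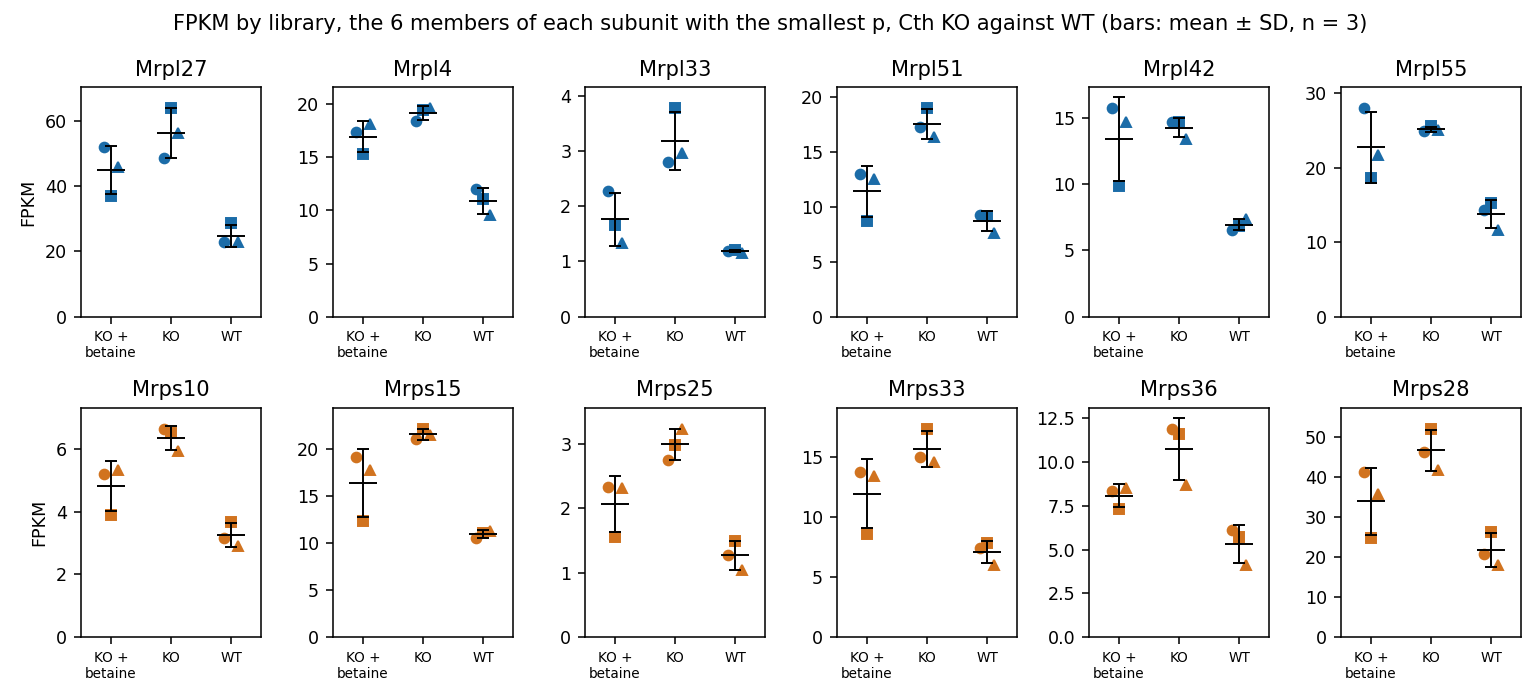
FPKM of the 6 large (top row, blue) and 6 small (bottom row, orange) subunit genes with the smallest p in the comparison of knockout with WT livers, by library; circles, squares and triangles are replicates 1, 2 and 3, and bars are the mean ± SD (n = 3). In each of the 12 panels all knockout libraries lie above all WT libraries, and the square of the betaine group is its lowest in 11 panels.

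The proteins of the stalk base and other functional sites of the large subunit did not all pass the test. Mrpl11, part of the stalk base that contacts translation factors, rose to 11.1 ± 0.428 FPKM in knockout livers, against 6.89 ± 0.691 FPKM in WT livers (SD, n = 3 each; log2 fold change 0.65, adjusted p = 0.0145). Mrpl10 and Mrpl12 form the stalk, and Mrpl12 also binds the mitochondrial RNA polymerase. Neither passed the test, with log2 fold changes of 0.37 (adjusted p = 0.0787) and 0.20 (adjusted p = 0.49). Mrpl58, which releases peptides from stalled ribosomes, rose by 0.81 (adjusted p = 0.0224). Mrpl44 has an RNase III fold. It had 14.4, 14.4 and 16.4 FPKM in betaine-supplemented knockout livers, 12.6, 10.2 and 11.4 FPKM in knockout livers and 14.02, 10.4 and 10.4 FPKM in WT livers, so that knockout and WT overlapped (log2 fold change -0.02, adjusted p = 0.937). Mrpl3, a counterpart of a core protein of the bacterial large subunit, had a value of -0.14 (adjusted p = 0.498).

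In the small subunit the values ran up to 1.09. Mrps33, a protein found only in mitochondria, had 13.7, 8.61 and 13.4 FPKM in betaine-supplemented knockout livers, 15.0, 17.3 and 14.6 FPKM in knockout livers and 7.39, 7.85 and 6.04 FPKM in WT livers. All betaine and knockout libraries lay above WT, with a log2 fold change of knockout over WT of 1.09 ± 0.19 (SE, adjusted p = 0.00688). Mrps15, whose bacterial counterpart binds the small subunit RNA early in assembly, had 19.2, 12.4 and 17.8 FPKM in betaine-supplemented knockout livers, 21.1, 22.2 and 21.5 FPKM in knockout livers and 10.5, 11.1 and 11.3 FPKM in WT livers. The 3 groups did not overlap (knockout over WT 0.94 ± 0.16 SE, adjusted p = 0.00669). Mrps10, which belongs to the head of the subunit, had 5.20, 3.89 and 5.33 FPKM in betaine-supplemented knockout livers, 6.64, 6.49 and 5.93 FPKM in knockout livers and 3.17, 3.68 and 2.92 FPKM in WT livers. It rose by 0.87 ± 0.14 (SE, adjusted p = 0.00669). Mrps25 (0.99, adjusted p = 0.00673) and Mrps28 (1.09, adjusted p = 0.00889) rose too.

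Mrps36, the 2-oxoglutarate dehydrogenase component, rose by 0.95 (adjusted p = 0.00809), and Mrps30, which sits in the large subunit, by 0.60 (adjusted p = 0.0271). Mrps18a, the other member placed in the large subunit against its symbol, had 0.16 (adjusted p = 0.508). The small subunit genes Mrps16 (0.52, adjusted p = 0.0158) and Mrps27 (0.60, adjusted p = 0.0211), a pentatricopeptide repeat protein, passed the test. Mrps22 (0.18, adjusted p = 0.369) and Mrps34 (0.17, adjusted p = 0.456) did not pass it. Mrps12, a protein of the decoding centre, had 28.9, 31.3 and 39.4 FPKM in betaine-supplemented knockout livers, 31.1, 23.6 and 26.7 FPKM in knockout livers and 32.8, 34.7 and 23.3 FPKM in WT livers. Its groups overlapped (log2 fold change -0.14, adjusted p = 0.599). Mrps23 was the only member whose knockout libraries all lay below the WT libraries. It had 10.8, 12.8 and 12.8 FPKM in betaine-supplemented knockout livers, 11.3, 10.4 and 10.8 FPKM in knockout livers and 12.2, 12.4 and 12.3 FPKM in WT livers, a log2 fold change of -0.17 with an adjusted p of 0.262.

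**Figure D3:**
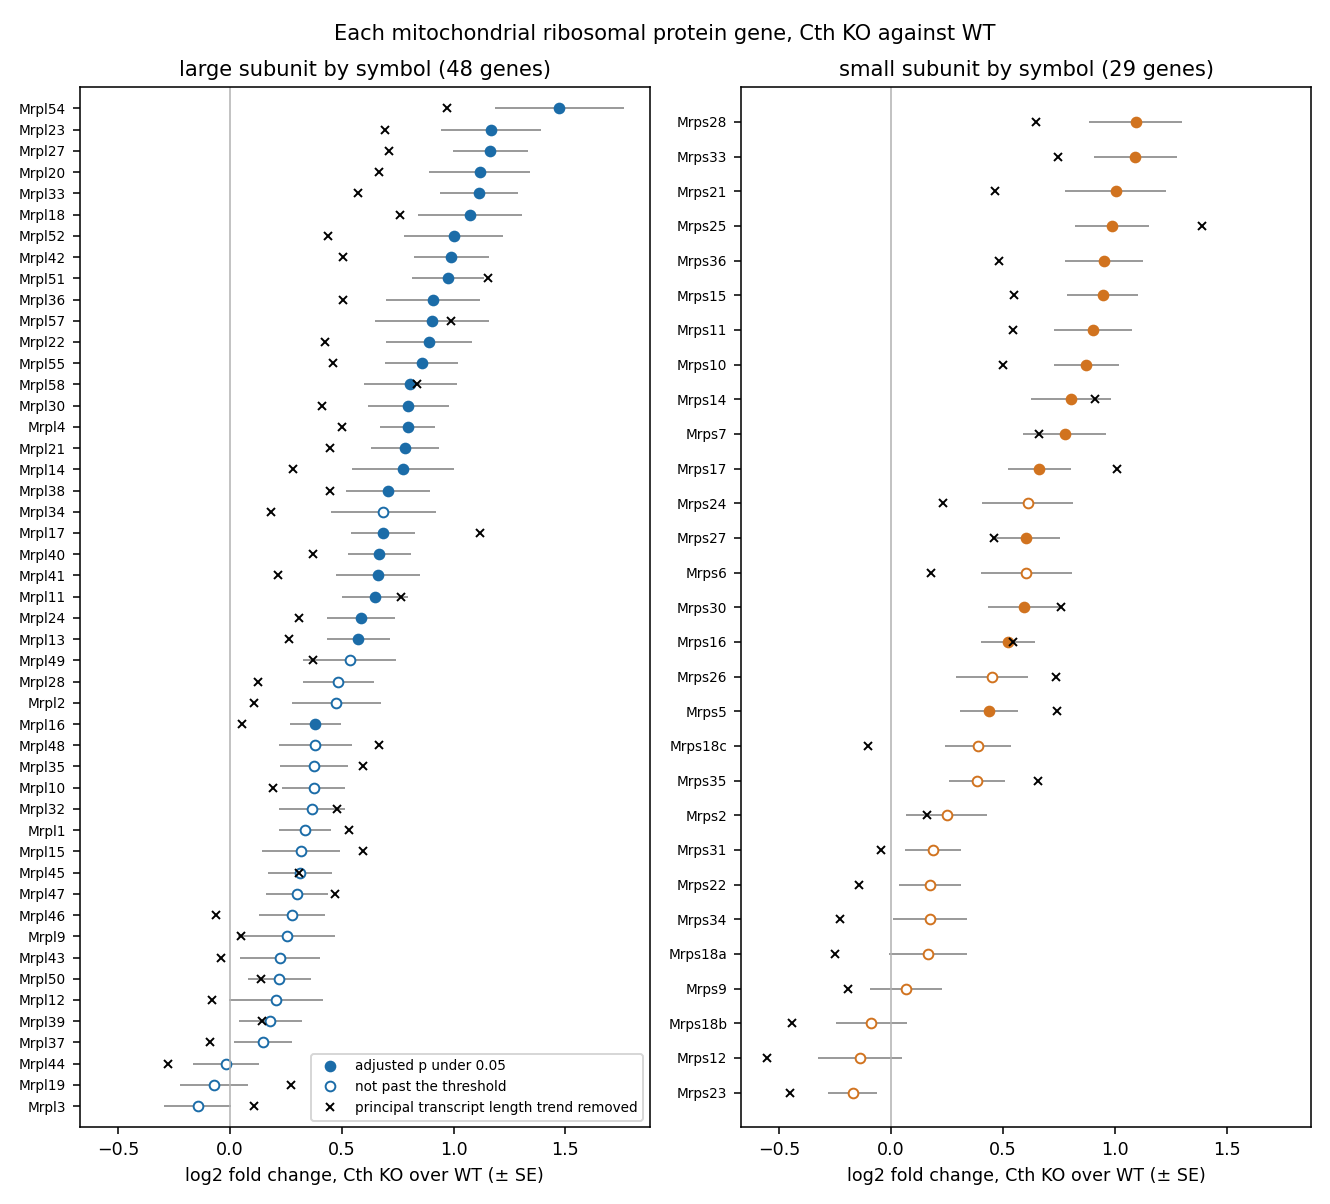
Log2 fold change of Cth knockout over WT for each of the 77 tested members (points with SE bars), sorted within the large (left) and small (right) subunit by symbol. Filled points passed an adjusted p under 0.05, 26 on the left and 15 on the right; crosses give the value with the trend on principal transcript length removed, which for most members lies left of its point.

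Members at both ends of the range of levels passed the test. Mrpl34 had the highest mean of the large subunit, with 107 ± 5.81 FPKM in knockout livers and 68.5 ± 20.1 FPKM in WT livers (SD, n = 3 each), and missed the threshold (0.69, adjusted p = 0.0575). Mrpl14 (0.77, adjusted p = 0.0362) and Mrpl52 (1.00, adjusted p = 0.0136) came next in level and rose. In the small subunit the 3 highest were Mrps21 (1.00, adjusted p = 0.0145), Mrps7 (0.78, adjusted p = 0.017) and Mrps24 (0.61, adjusted p = 0.0529). At the low end, Mrpl33 and Mrps25 rose, whereas Mrpl19 (-0.07, adjusted p = 0.76) and Mrps9 (0.07, adjusted p = 0.786) did not pass. These levels are FPKM over the union of annotated exons, which for Mrpl33 is 7326 bases, against 478 for its principal transcript. The log2 fold change of Mrpl33 was 1.39 with the exon length trend removed and 0.57 with the principal transcript length trend removed. Exons of 33 of the 78 members overlap another gene, 25 of them on the opposite strand only. The labels give no strand for the libraries, so reads of such pairs cannot be told apart where both are expressed.

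Fold changes of knockout over WT were higher for shorter transcripts, and the members are short. The members' exon unions ran from 607 to 8631 bases with a median of 2533, against 3798 over all genes, and their principal transcripts had a median of 1316 bases, against 2597. Across genes, which are not independent replicates, Spearman's rho between exon length and the log2 fold change of knockout over WT was -0.25 for the 77 members and -0.46 for 11849 genes. With the length of the principal transcript it was -0.41 for the members and -0.54 for all genes. Genes were divided into 3 equal groups by exon length, short (up to 2677 bases), middle and long (from 5245 bases). In the short group 54.8% of 42 members and 24.1% of all genes were called higher. In the middle group 47.6% of 21 members and 10.6% of all genes were called higher, and in the long group 57.1% of 14 members and 3.85% of all genes. The member medians in these groups were 0.67, 0.38 and 0.51, and those of all genes 0.35, 0.01 and -0.25. Grouped by principal transcript length, 51 members were short (up to 1849 bases), 14 middle and 12 long (from 3481 bases). Of these 56.9%, 57.1% and 33.3% were called higher, against 27.6%, 8.23% and 2.58% of all genes. The member medians were then 0.66, 0.56 and 0.38, and those of all genes 0.41, 0.02 and -0.30.

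**Figure D4:**
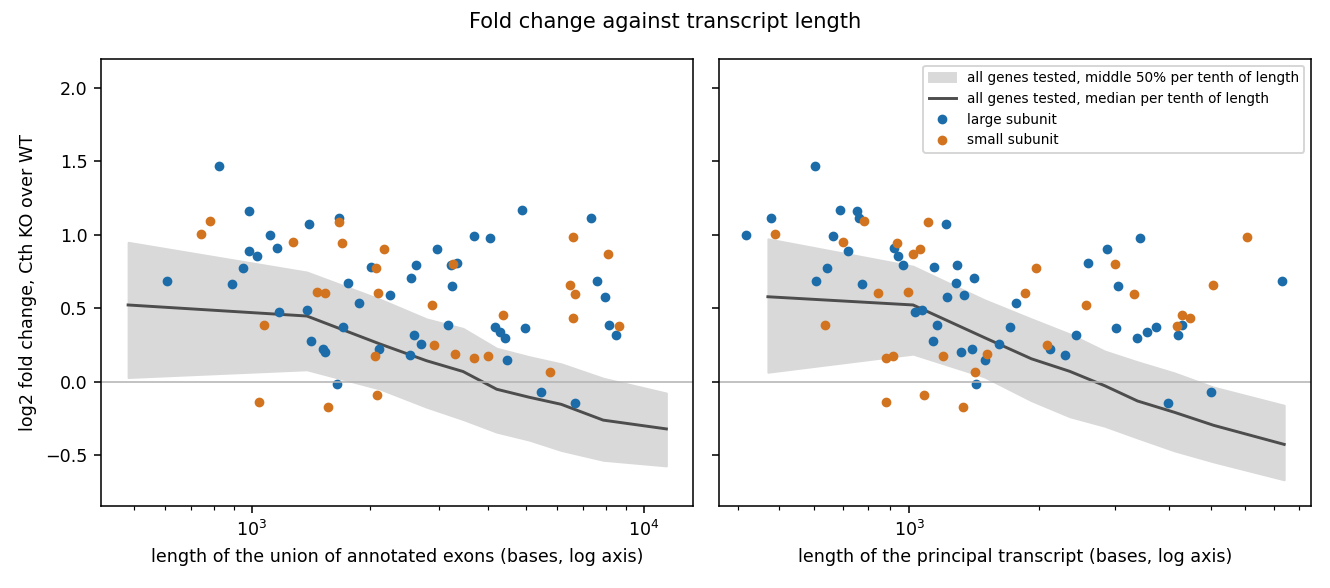
Log2 fold change of Cth knockout over WT against the length of the exon union (left) and of the principal transcript (right), on log axes, for the large (blue) and small (orange) subunit. The line and band give the median and the interquartile range of all genes tested in 10 bins of length. The line falls with length in both panels, and most members lie above it.

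With the trend on exon length taken out of each library, 24 large and 15 small subunit genes were called higher, with medians of 0.47 and 0.55, and 10.2% of all genes were. With the trend on principal transcript length taken out, 16 large and 14 small subunit genes were called higher, with medians of 0.43 and 0.48, where 6.92% of all genes were. Of the 41 genes that rose in the deposited FPKM, 34 were still called with exon length removed and 27 with principal transcript length removed. With principal transcript length removed and WT replicate 3 left out, 9 large and 10 small subunit genes were called higher, with medians of 0.33 and 0.39, where 5.59% of all genes were. Mrps23 was called lower with either length trend removed (exon length -0.46, adjusted p = 0.0363; principal transcript -0.45, adjusted p = 0.0431). Of the large subunit, Mrpl4, Mrpl27, Mrpl33, Mrpl42, Mrpl51 and Mrpl54 were called higher in all 24 alternative settings, as were Mrps10, Mrps15, Mrps25 and Mrps33 of the small subunit, 10 genes in all.

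The scale of the table bears on the size of the difference. The deposited FPKM are scaled like median-of-ratios size factors, which set the typical gene to no change. On FPKM rescaled to the same sum in every library (TPM), the member medians for knockout over WT were 0.23 and 0.20 where the median of all genes was -0.36, and 15 large and 9 small subunit genes were called higher. On TPM 4.96% of all genes were called higher and 31% lower. On each library's own read total, 25 large and 14 small subunit genes were called higher, where 9.87% of all genes were. The medians of both subunits stayed positive under every scaling tried.

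In knockout livers given betaine, no member passed the test against knockout livers on drinking water. An unadjusted p under 0.05 was reached by 17 of the 77 members, 4 higher and 13 lower. Over all genes 0.0169% were called higher and 0.0253% lower, so few genes of any kind passed. The member medians were -0.19 in the large and -0.18 in the small subunit, against 0.00 over all genes, and 60 of 77 values were negative. Short genes as a whole also had negative values. Among genes with short principal transcripts the median was -0.22 for the 51 members and -0.20 for all genes. It was -0.20 and 0.03 in the middle group, and -0.12 and 0.12 in the long group. The direction of the subunit medians depended on the scaling, since they were 0.16 and 0.18 on TPM, where that of all genes was 0.33. On each library's own read total they were -0.01 and 0.01, where that of all genes was 0.16. The FPKM of betaine-supplemented and unsupplemented knockout livers did not overlap, with betaine lower, for 11 large and 9 small subunit genes, 20 of 77, where 14.7% of all genes did so. They lay apart with betaine higher for 6 members, where 15.6% of all genes did so.

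The values nearest to the threshold were those of Mrpl33 (log2 fold change -0.72 ± 0.17 SE, adjusted p = 0.0909) and Mrpl51 (-0.61 ± 0.16 SE, adjusted p = 0.0998), whose libraries are given above. Both were called lower without betaine replicate 1. Mrps21 had a value of -0.66 (adjusted p = 0.143), with 57.2, 31.8 and 46.4 FPKM in betaine-supplemented knockout livers, 72.6, 80.3 and 58.5 FPKM in knockout livers and 40.0, 36.2 and 28.6 FPKM in WT livers. Its betaine libraries lay below the knockout libraries and overlapped the WT libraries. Mrpl19 had the highest value, 0.51 ± 0.15 (SE, adjusted p = 0.119). It had 2.51, 2.06 and 2.73 FPKM in betaine-supplemented knockout livers, 1.91, 1.33 and 1.43 FPKM in knockout livers and 1.79, 1.54 and 1.61 FPKM in WT livers, so that every betaine library was above the other 6. Mrps18b (0.51, adjusted p = 0.127) also lay apart from both other groups' ranges, with 7.53, 9.64 and 11.4 FPKM in betaine-supplemented knockout livers, 6.98, 5.97 and 6.43 FPKM in knockout livers and 7.42, 6.04 and 7.28 FPKM in WT livers.

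Against WT livers, the betaine-supplemented knockout livers had higher values for most members, but few members passed the test. Of the large subunit 6 of 48 genes rose and of the small subunit 3 of 29, and none fell, where 5.87% of all genes were called higher and 5.78% lower. The medians were 0.39 and 0.42, against 0.00 over all genes, and 73 of 77 values were positive. The FPKM lay apart and above WT for 19 large and 16 small subunit genes, 35 of 77, where 16.1% of all genes did so. With principal transcript length removed, 6 large and 2 small subunit genes were called higher, where 4.73% of all genes were. Without WT replicate 3, 4 large and 2 small subunit genes were called higher, where 5.59% of all genes were. These counts moved with the libraries and the fit. In a fit of the betaine and WT libraries alone 0 were called, and with 1 library left out the large subunit count ran from 0 to 15 and the small subunit count from 1 to 9. The shares of all genes called in these fits are not given here, except without WT replicate 3. The 3 comparisons share libraries in pairs, so their values are not independent of each other.

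The 9 genes that passed were Mrpl4, Mrpl16, Mrpl27, Mrpl40, Mrpl42, Mrpl55, Mrps16, Mrps27 and Mrps33. Mrps16 had 10.8, 8.79 and 10.1 FPKM in betaine-supplemented knockout livers, 9.47, 8.65 and 8.38 FPKM in knockout livers and 6.51, 5.89 and 5.62 FPKM in WT livers. All betaine libraries lay above the WT libraries (0.67 ± 0.12 SE, adjusted p = 0.012). Mrps27 had 19.1, 14.8 and 16.3 FPKM in betaine-supplemented knockout livers, 14.6, 13.9 and 13.6 FPKM in knockout livers and 10.8, 7.44 and 9.25 FPKM in WT livers. Its betaine libraries lay above all others (betaine over WT 0.84 ± 0.15 SE, adjusted p = 0.0124). Mrpl42 (0.88, adjusted p = 0.0151), Mrpl4 (0.62, adjusted p = 0.0173) and Mrpl27 (0.84, adjusted p = 0.0179) had the smallest p of the large subunit. Mrpl16, whose bacterial counterpart helps to position transfer RNA, had 0.41 (adjusted p = 0.0454), and Mrpl40 0.51 (adjusted p = 0.0452).

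**Figure D5:**
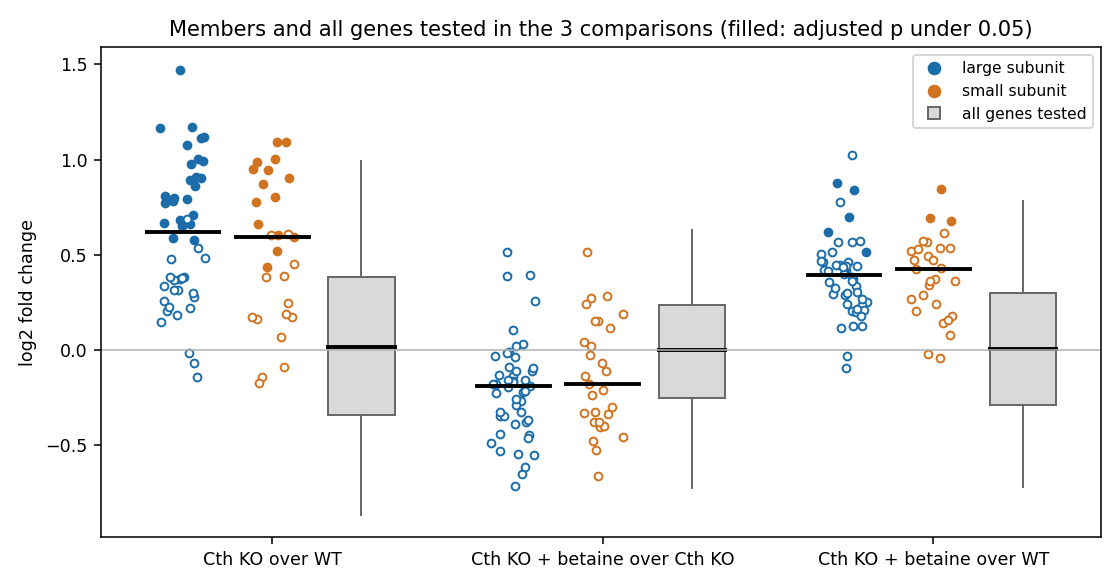
Log2 fold changes of the large (blue) and small (orange) subunit genes in the 3 comparisons, with filled points for an adjusted p under 0.05 and black bars for medians. Grey boxes give the interquartile range of all genes tested, with the median as a bar and lines to the outer percentiles. Member medians are 0.62 and 0.59 for knockout over WT, -0.19 and -0.18 for betaine over knockout, and 0.39 and 0.42 for betaine over WT, while the boxes centre on 0.

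Another 5 mitochondrial ribosomal proteins carry other names. Of these 3 rose in knockout livers and none fell, with a median of 0.59. Aurkaip1 had 44.6 ± 5.98 FPKM in betaine-supplemented knockout livers, 51.6 ± 5.22 in knockout livers and 28.3 ± 6.27 in WT livers (SD, n = 3 each; knockout over WT 0.88, adjusted p = 0.0121). Dap3, a GTP-binding protein of the small subunit (0.45, adjusted p = 0.0189), and Chchd1 (0.59, adjusted p = 0.0203) rose as well. Ptcd3, a pentatricopeptide repeat protein of the small subunit, had 5.98 ± 1.08 FPKM in betaine-supplemented knockout livers, 3.82 ± 0.475 in knockout livers and 3.73 ± 0.102 in WT livers. Its value for betaine over WT was 0.60 (adjusted p = 0.0331).

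Genes that build, modify and serve the mitochondrial ribosome were described by lists of other factors, whose counts for knockout over WT stand against the 12.8% of all genes called higher and the 12.7% called lower. Of 26 assembly factors and ribosomal RNA modifying enzymes 3 rose and 1 fell in knockout livers, with a median of 0.26. Mettl17, an assembly factor of the small subunit, rose to 3.96 ± 0.0814 FPKM in knockout livers, against 1.90 ± 0.289 FPKM in WT livers (0.90, adjusted p = 0.0125). Mrm3, a methyltransferase of the large subunit RNA (0.76, adjusted p = 0.0188), and Rcc1l (0.57, adjusted p = 0.0445) rose, and the helicase gene Dhx30 fell (-0.53, adjusted p = 0.031). Of 14 translation factors tested 2 rose and 2 fell, with a median of 0.18. C1qbp, a matrix protein that binds ribosomes and RNA, had 39.6 ± 6.78 FPKM in betaine-supplemented knockout livers, 41.1 ± 2.46 in knockout livers and 20.2 ± 2.61 in WT livers (knockout over WT 1.01, adjusted p = 0.00612). Tsfm, the exchange factor for elongation factor Tu, rose (0.65, adjusted p = 0.016). The elongation factor gene Gfm1 (-0.54, adjusted p = 0.0302) and Taco1, an activator of cytochrome oxidase subunit translation (-0.97, adjusted p = 0.0411), fell.

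Of 21 aminoacyl-tRNA synthetase and amidotransferase genes 2 rose and none fell, Tars2 (0.46, adjusted p = 0.0253) and Gatb (0.50, adjusted p = 0.0216), with a list median of 0.11. Of 16 genes of mitochondrial transcription and RNA stability 1 rose and 1 fell, with a median of -0.15. Hsd17b10, a subunit of mitochondrial RNase P, had a value of 1.02 (adjusted p = 0.00949), and Polg, the mitochondrial DNA polymerase, -0.73 (adjusted p = 0.0131). Of 12 import and chaperone genes 4 rose and none fell, Hspe1 (0.66, adjusted p = 0.0132), Tomm40 (0.75, adjusted p = 0.0136), Tomm22 (0.67, adjusted p = 0.0201) and Timm50 (0.65, adjusted p = 0.0219), with a median of 0.10. Of 10 transcription regulators of mitochondrial biogenesis none rose and 1 fell, with a median of -0.19. This was Gabpa, the DNA-binding subunit of the ETS factor whose letters were searched above. It had 4.64, 6.59 and 5.77 FPKM in betaine-supplemented knockout livers, 4.80, 3.74 and 4.68 FPKM in knockout livers and 8.41, 7.50 and 8.30 FPKM in WT livers (knockout over WT -0.81 ± 0.15 SE, adjusted p = 0.00843). All knockout libraries with or without betaine lay below the WT libraries.

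The counts of these lists for knockout over WT depended on the scaling and on the libraries. On TPM 4.96% of all genes were called higher and 31% lower. Of all genes 9.99% were called higher without WT replicate 3 and 6.92% with principal transcript length removed. On TPM, 1 of the 5 ribosomal proteins under other names was called higher, 1 assembly factor was higher and 2 were lower, and 1 translation factor was higher and 2 were lower. On that scale 0 synthetase genes were higher and 3 lower, 1 gene of transcription and RNA stability was higher and 9 were lower, 1 import gene was higher and 4 were lower, and 4 regulators were lower. The list medians on TPM were 0.18 for the ribosomal proteins under other names, -0.12 for assembly factors, -0.16 for translation factors, -0.26 for synthetases, -0.56 for transcription and RNA stability, -0.31 for import genes and -0.57 for regulators, where that of all genes was -0.36. The medians of assembly factors, translation factors, synthetases and import genes thus turned in sign. Without WT replicate 3, 3 import genes were higher and 2 lower, 1 gene of transcription and RNA stability was higher and 3 were lower, and 1 synthetase gene was higher and 1 was lower. The same fit called 3 assembly factors and 2 translation factors higher and none of either lower, 3 ribosomal proteins under other names higher and 2 regulators lower. With principal transcript length removed, 2 ribosomal proteins under other names, 1 assembly factor, 1 translation factor, 2 synthetase genes, 1 gene of transcription and RNA stability and 1 import gene were higher. With that length removed 1 translation factor, 1 import gene and 1 regulator were lower. The share of all genes called lower is not given here without WT replicate 3 or with that length removed. The counts of lower genes in those fits cannot be set against it.

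For betaine over knockout 0 genes of these 7 lists passed the test on the deposited FPKM. On TPM, where 14.2% of all genes were called higher, 1 of the ribosomal proteins under other names, 4 assembly factors, 3 translation factors, 9 synthetases, 7 genes of transcription and RNA stability, 7 import genes and 0 regulators were called higher. For betaine over WT 5.87% of all genes were called higher and 5.78% lower, and 5.59% were called higher without WT replicate 3. Against WT livers, betaine-supplemented knockout livers had 3 of 5 ribosomal proteins under other names higher and 4 of 26 assembly factors. The count was 3 of 14 translation factors, 3 of 21 synthetases, 3 of 16 genes of transcription and RNA stability and 2 of 12 import genes, with none lower in any of these lists. Of the 10 regulators 2 fell, Yy1 (-0.73, adjusted p = 0.0248) and Tfe3 (-0.50, adjusted p = 0.0417). Without WT replicate 3 these counts were 1 ribosomal protein under another name, 2 assembly factors, 2 translation factors, 0 synthetases, 2 genes of transcription and RNA stability and 2 import genes higher, and 3 regulators lower. The share of all genes called lower in that fit is not given here.

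The RNAs that these proteins bind come from the mitochondrial genome. The small subunit RNA mt-Rnr1 had 317, 176 and 377 FPKM in betaine-supplemented knockout livers, 923, 1394 and 1095 FPKM in knockout livers and 597, 1251 and 290 FPKM in WT livers. The large subunit RNA mt-Rnr2 had 307, 153 and 324 FPKM in betaine-supplemented knockout livers, 1059, 1506 and 1051 FPKM in knockout livers and 600, 1211 and 284 FPKM in WT livers. The betaine libraries lay below every knockout library for both RNAs, with values of -2.02 (adjusted p = 0.0931) and -2.26 (adjusted p = 0.0877), and the WT libraries overlapped both other groups. The libraries were made with selection on poly-T beads, which holds back RNAs without a long tail.

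Another 2 large groups were set beside the members. Of 82 cytosolic ribosomal protein genes tested 54 rose in knockout livers, with a median of 0.75, and with principal transcript length removed 17 did, with a median of 0.34. Of 37 complex I subunit genes 31 rose, with a median of 0.99, and 18 did with principal transcript length removed, with a median of 0.56. Over all genes 12.8% were called higher, and 6.92% with principal transcript length removed. For betaine over knockout the medians were -0.52 for cytosolic ribosomal proteins and -0.47 for complex I, and 0 genes of either group passed. For betaine over WT they were 0.22 and 0.53. The difference between these groups and the mitochondrial ribosomal proteins was not tested.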

How the data were processed

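RNA of 9 mouse liver samples in 3 groups of 3 was sequenced after poly-T selection with an NEBNext Ultra kit, per the labels' protocols. The deposited table holds FPKM values that the authors made for 54532 genes. The build was mm10, and DESeq2 1.16.1, HISAT2 2.0.5 and featureCounts 1.5.0-p3 are named without their roles, per the submitters' processing notes. Symbols and exon lengths came from GENCODE M21 (GRCm38). FPKM times exon length gave whole reads, within 0.05, for 98.3% to 98.6% of values up to 20 reads. The FPKM denominators behaved like median-of-ratios size factors, since the median gene ratio was 1.01 in every library. The limit that a count of 0 allows, 3 reads, is 0.162 to 0.222 FPKM at 1 kb and covers counting error alone.

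The 11852 genes averaging 0.5 FPKM or more were tested on log2(FPKM + 0.5), a scale that understates changes of low genes, in 1 limma 3.58.1 model of all 9 libraries (eBayes with trend and robust, R 4.3.3). Tests were two-sided, with Benjamini-Hochberg adjustment over all genes within each of 3 comparisons and a threshold of 0.05. Length trends were splines with 5 degrees of freedom on log2 length, fitted on all genes tested and subtracted from each library. The fit was also run on simulated data, with an outcome that is not reported here. Named members were those passing the test, at most 6 per subunit and comparison by smallest p, the 3 highest and 3 lowest in level per subunit and a list of members of known role; Mrpl54, Mrpl32, Mrpl46, Mrps11, Mrps18b and Mrps23 were chosen after their values were seen. Members and lists were chosen with earlier results of these data known. Of the listed symbols, Prorp was not matched. Alternatives were pseudocounts, filters, scalings, length trends, a replicate block, the groups fitted, moderation and leaving out each library. The principal transcript length was chosen after seeing the data. Python 3.11.15 prepared tables and figures.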

Additional observations from a re-analysis of the deposited data

How the results depend on the processing

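Each comparison was refitted under 24 alternative settings. For knockout over WT, the large subunit count of 26 genes became 15 on TPM, 16 with principal transcript length removed, 14 with exon length removed and without WT replicate 3, and 9 with principal transcript length removed and without that library. The small subunit count of 15 became 9 on TPM. With 1 library left out, the counts ran from 10 to 27 in the large and from 7 to 17 in the small subunit. Members called lower numbered 2 on TPM (Mrps12 and Mrps23) and 1 with either length trend removed, with or without WT replicate 3. Among named members that passed the threshold for knockout over WT, Mrpl16 turned in direction, with -0.030 on TPM.

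For betaine over knockout, TPM called 4 large and 5 small subunit genes higher, where 14.2% of all genes were. It turned the medians to 0.16 and 0.18, and the own read total turned the small subunit median to 0.0078. Leaving out 1 library gave 0 to 1 small subunit genes higher and 0 to 2 members lower. For betaine over WT, the counts of 6 large and 3 small subunit genes became 10 and 9 on TPM, 15 and 13 on own read totals, 10 and 7 after quantile normalization and 0 and 0 in a fit of those libraries alone. The large subunit count was 3 without a filter on low values, and 3 with either length trend removed and without WT replicate 3. With 1 library left out it ran from 0 to 15, and the small subunit count from 1 to 9. With principal transcript length removed and without WT replicate 3, 1 member, Mrpl9, was called lower. For most of these settings of betaine over WT the share of all genes called is not given here. A change in the members' counts there cannot be told apart from a change over all genes. The causes of these differences were not tested.

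Over the named members, 740 of the refitted values for knockout over WT stayed on their side of the threshold, 94 no longer passed and 5 newly passed. For betaine over knockout 831 stayed on their side and 9 newly passed, and for betaine over WT 736 stayed, 80 no longer passed and 24 newly passed. Among those that stayed, values past the threshold in neither fit turned in sign 41 times for knockout over WT, 31 times for betaine over knockout and 21 times for betaine over WT.

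The deviations of same-numbered libraries had correlations of 0.0487 to 0.098 for knockout and WT, -0.227 to -0.0277 for betaine and knockout and -0.124 to -0.0953 for betaine and WT, so by the rule used, every same-number correlation over 0.1, the numbers were not taken to pair the samples. With the replicate number as a block, 39 of the 41 members stayed called for knockout over WT. With the block and exon length removed the large subunit count was 13. For betaine over WT the block gave 3 large subunit genes, and 1 with exon length removed. Every knockout library correlated best with the WT library of its own number, at no more than 0.098. The highest correlation of all, 0.263, was between libraries of unlike number, betaine replicate 1 and knockout replicate 2.

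With 3 libraries a group the spread is poorly known, and members with few reads are the least certain: Mrps6 had 66 to 124 reads.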

Other observations

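Many mitochondrial ribosomal protein genes share a start region with a gene read in the opposite direction. Of the 77 tested members 26 (33.8%) had the start of another protein-coding gene of the opposite strand within 1000 bases, with starts overlapping by at most 300 bases, against 13.2% of 10380 protein-coding genes tested. Of the 22 partners that are not members and were tested, 5 rose and 1 fell in knockout livers, with a median of 0.20, where 12.8% of all genes were called higher and 12.7% lower. Those that rose included Pnpla7, a lysophospholipase gene beside Mrpl41, with 17.7 ± 2.41 FPKM in betaine-supplemented knockout livers, 17.1 ± 1.23 in knockout livers and 9.95 ± 1.70 in WT livers (SD, n = 3 each; knockout over WT 0.76, adjusted p = 0.011). Psma2, a proteasome subunit beside Mrpl32 (0.59, adjusted p = 0.0165), Ndufb5, a complex I subunit beside Mrpl47 (0.73, adjusted p = 0.0176), and Fau, a ribosomal protein fusion gene beside Mrpl49 (0.70, adjusted p = 0.046), rose while the member beside each did not pass the test. Hira, a histone chaperone beside Mrpl40, rose too (0.64, adjusted p = 0.0487). Zfp189 beside Mrpl50 fell (-0.61, adjusted p = 0.0145).

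In other pairs the log2 fold changes of knockout over WT were as follows. Mrpl54 had 1.47, and Apba3, which starts 26 bases away, had 0.36 (adjusted p = 0.113). Mrpl18 had 1.07, and Tcp1, a chaperonin subunit 37 bases away, had 0.10 (adjusted p = 0.54). Mrpl14 had 0.77 and Tmem63b -0.25 (adjusted p = 0.145). Mrpl46 and Mrps11, with starts 30 bases apart, had 0.28 (adjusted p = 0.188) and 0.90 (adjusted p = 0.00925), and their exons overlap on opposite strands. So do the exons of Mrpl18 and Tcp1, of Mrpl14 and Tmem63b, and of Mrpl47 and Ndufb5. Reads in the shared exons of such pairs cannot be told apart. The differences within pairs were not tested.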
